A study of Mus musculus with 9 samples.

Results

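Cells treated with an inhibitor of miR-378-3p were compared with cells that received a control RNA, on 6 of the 9 arrays of the series. The 6 arrays were taken by the transfectant in their labels, 3 with the miR-378 inhibitor and 3 with RISC-free siRNA, and each gene was read from 1 probe set, that with the highest mean over the 9 arrays. The cells were NIH-3T3, an established mouse embryonic fibroblast line. The cells were grown in RPMI medium with fetal calf serum. Both groups, and 3 arrays of cells with a miR-378-3p mimic, received 25 nM RNA with the transfection reagent DharmaFECT 1, and RNA was taken 48 hours later. The control is an siRNA modified so that the silencing complex does not take it up. No inhibitor of an unrelated sequence is among the groups, so a response to blocking miR-378-3p and a response to an inhibitor RNA as such cannot be told apart. The samples are labelled as triplicates, without a word on separate cultures. The p-values set group differences against the spread among these samples, and that spread may be technical. In bulk RNA of a culture, fewer cells with a transcript and less of it per cell cannot be told apart.

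MicroRNAs guide the silencing complex to messenger RNAs, mostly through pairing of the seed near their 5′ end, and lower the stability and translation of those messages. An inhibitor is a complementary oligonucleotide that occupies the microRNA, so that its direct targets can rise, while later effects can go either way. Cultured fibroblasts answer growth factors through receptor tyrosine kinases and the MAP kinase cascade, which switch on early response factors, Myc and the G1 cyclins, and the same cells make and remodel the collagen-rich matrix around them.

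The inhibitor was made against mmu-miR-378-3p. RefSeq (GRCm38.p6) gave the mature sequences of 3 relatives of this microRNA, shown because the seed, in capitals (bases 2 to 8), is the part through which a family shares targets. Their positions are chr11:88352839-88352858 on the plus strand for miR-378b, chr14:46954905-46954925 on the minus strand for miR-378c and chr10:126710355-126710376 on the minus strand for miR-378d. No pair of the 3 seeds is identical.
mmu-miR-378b: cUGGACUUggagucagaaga
mmu-miR-378c: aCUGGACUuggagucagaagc
mmu-miR-378d: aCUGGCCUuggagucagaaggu

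All values are log2 intensities, so that a difference of 1 is a doubling, and 11963 genes above a level of 3.86 were tested. A gene is said to have risen or fallen where limma's p, adjusted over these genes by the Benjamini-Hochberg method, was at most 0.05. By this rule 1330 genes rose (11.1%) and 450 fell (3.76%), and the rises were 74.7% of the calls. After quantile normalization of the arrays the split was 1269 rises to 1022 falls, or 55.4% rises. The median log2 fold change of all genes was 0.01. The upper quartile of the arrays ran from 5.55 on mimic 3 to 5.76 on inhibitor 1, and these arrays also lay at the ends of the first principal component (scores of -20.5 and 20.88, with the controls between -4.38 and -2.78). The counts of rises and falls were 742 and 232 without control 1, 786 and 265 without control 2, 754 and 236 without control 3, 748 and 348 without inhibitor 1, 806 and 234 without inhibitor 3, and 2067 and 723 without mimic 3, whose group enters the fit only through the estimate of the spread. All 9 fibroblast markers checked lay above the level filter, between 6.66 and 11.37. Of 25 markers of macrophages, epithelium, endothelium, muscle and adipocytes, 10 lay above it, with no value over 4.99 on the control and inhibitor arrays and means per array of 3.88 to 3.90 in the controls and 3.82 to 3.88 with the inhibitor. None of the 10 was called by limma, where 1 had an unadjusted p under 0.05.

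The genes of growth control, stress and matrix were described through 34 lists with 931 members, of which 771 were tested, 111 lay below the level filter and 49 had no probe set of their own. Lists and members were chosen with earlier results of these data known. The shares given here and below thus describe these lists and are no independent support. Of 332 growth genes tested, 134 rose (40.4%) and 22 fell (6.63%), with a median log2 fold change of 0.17. Of 233 stress genes, 68 rose (29.2%) and 14 fell (6.01%), with a median of 0.12. Of 219 matrix and adhesion genes, 39 rose (17.8%) and 22 fell (10%), with a median of -0.01. Ribosome biogenesis factors, nucleotide synthesis enzymes and p53 targets had the highest list medians, at 0.39, 0.34 and 0.33, and the lowest were those of interferon-stimulated genes (-0.12), IGF-binding proteins (-0.08) and growth brakes (-0.08).

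**Figure D1:**
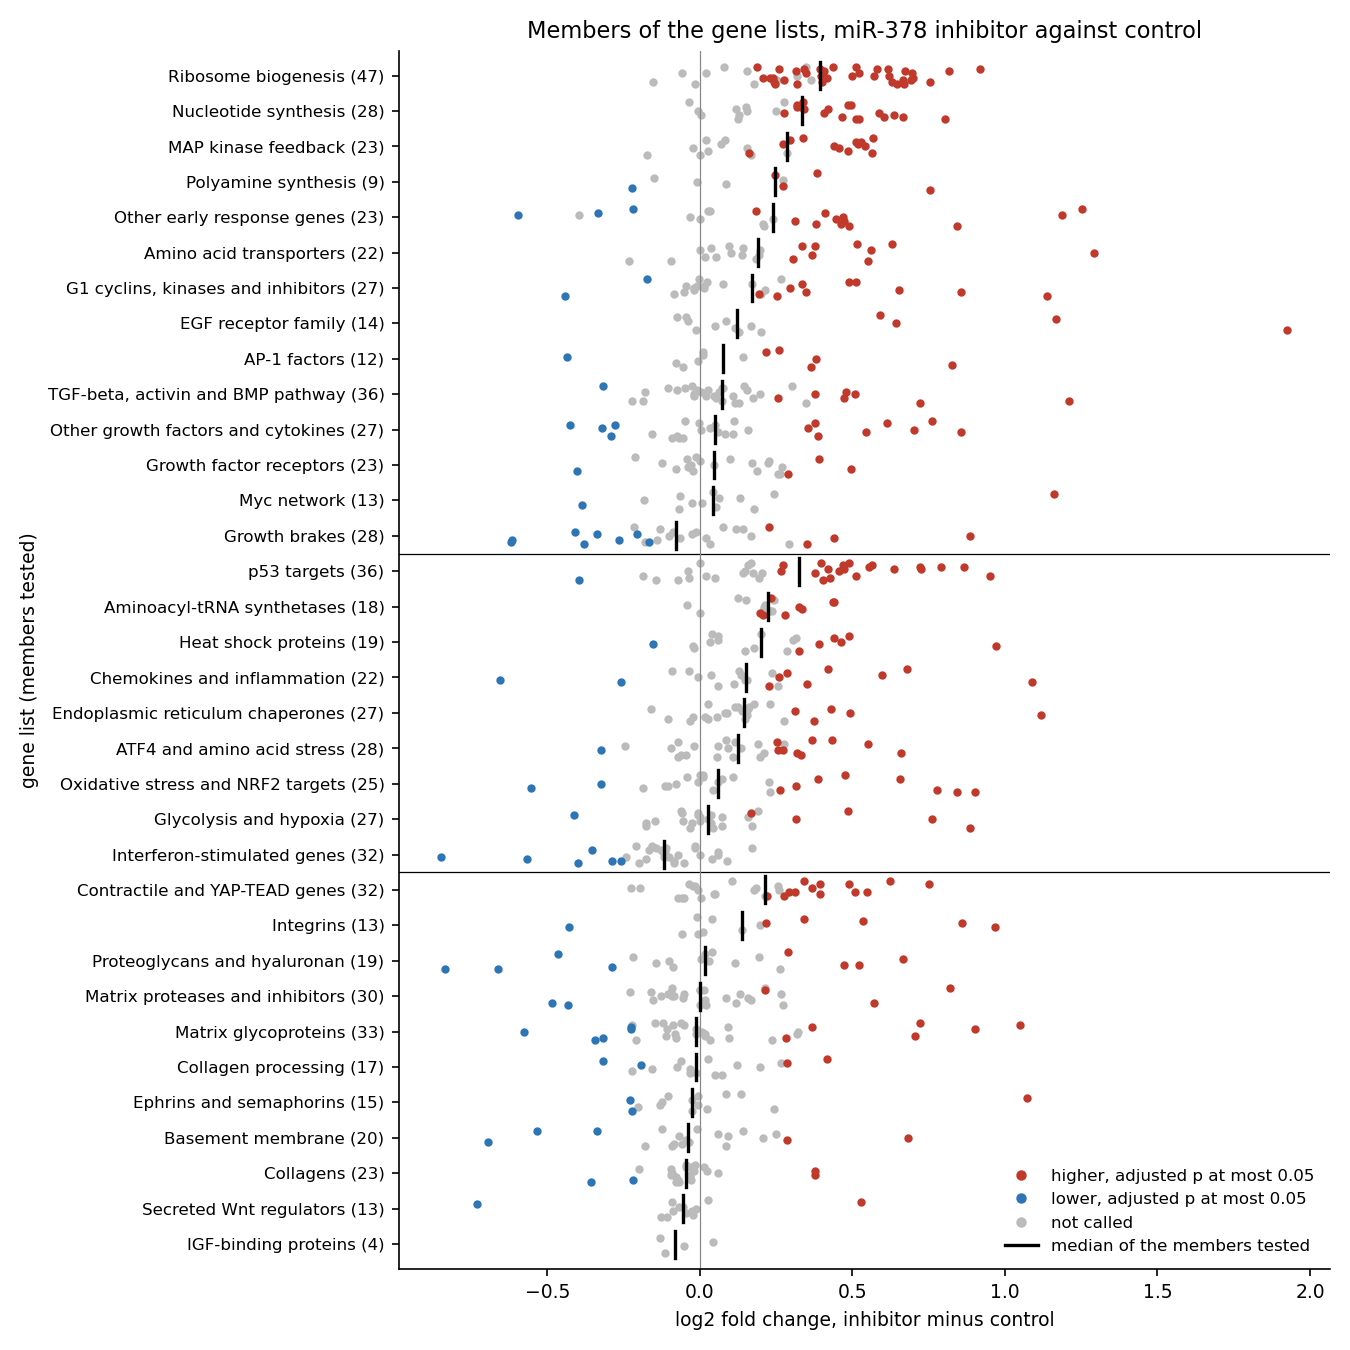
Each point is the log2 fold change (inhibitor minus control, x axis) of 1 tested member of a list (y axis, with the number of members tested), red where limma's adjusted p was at most 0.05 and the gene was higher, blue where it was lower and grey otherwise, and the black bars are list medians. The horizontal lines separate growth, stress and matrix lists. Of 47 ribosome biogenesis factors 36 are red, interferon-stimulated genes have 6 blue points and no red one, and the matrix lists hold points on both sides.

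Of 5 ligands of the epidermal growth factor (EGF) receptor family tested 2 rose, Ereg and Hbegf. The ligand genes Egf, Epgn, Btc and Nrg4 and the receptor genes Erbb3 and Erbb4 lay below the level filter, and Areg had no probe set of its own. Ereg (gene ID 13874), which encodes epiregulin, read 4.18, 4.22 and 4.25 in the controls and 6.36, 5.97 and 6.11 with the inhibitor. The lowest inhibitor array thus lay far above the highest control, and the fold change was 3.80 (log2 1.93 ± 0.10, SE; limma, adjusted p = 7.67e-06). Hbegf (gene ID 15200), which encodes heparin-binding EGF-like growth factor, read 4.41, 4.59 and 4.54 in the controls and 5.63, 5.74 and 5.67 with the inhibitor, again with no overlap (log2 1.17 ± 0.08, SE; limma, adjusted p = 3.42e-05). With the mimic, Ereg stood at 4.6, 4.6 and 4.30 and Hbegf at 5.03, 5.06 and 4.76, above the controls and below the inhibitor arrays. The ligand genes Tgfa (-0.01), Nrg1 (0.13) and Nrg2 (-0.04) were not called. The receptors were not called either. Egfr read 6.13, 6.13 and 6.20 in the controls and 6.29, 6.09 and 5.97 with the inhibitor, on both sides of the control values (-0.04, adjusted p = 0.848, limma), and Erbb2 differed by 0.05. The sheddase genes Adam10 (0.20) and Adam17 (-0.07), whose products release these ligands from the cell surface, were not called. Of 5 inhibitors of the receptor tested 2 rose, Lrig1, a membrane protein that promotes its degradation, by 0.64 and Errfi1, which blocks its kinase, by 0.59 (limma, adjusted p = 0.000364 and 0.00169). Of the 14 family members tested 4 rose and none fell (6 had an unadjusted p under 0.05), and the 4 also stood in each fit that left out 1 array.

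Genes listed under MAP kinase feedback, namely phosphatases, Ras or Raf inhibitors and ETS factors, rose in 13 of 23 cases (56.5%). None fell, the median was 0.29, and 8 rose without control 1. By role, 5 of 10 phosphatases, 5 of 8 Ras or Raf inhibitors and 3 of 5 ETS factors rose. The phosphatase gene Dusp4 read 3.71, 3.71 and 3.59 in the controls and 4.32, 4.19 and 4.19 with the inhibitor, and Dusp6, the ERK-specific phosphatase, read 6.70, 6.84 and 6.93 against 7.45, 7.38 and 7.22. In neither gene did the groups overlap, with log2 fold changes of 0.56 ± 0.06 and 0.53 ± 0.09 (SE; limma, adjusted p = 0.000394 and 0.00434). The control arrays of Dusp4 lay below the level of 3.86. It passed that filter through its inhibitor arrays, so its p-value is no independent support. The Ras pathway inhibitors Spry2 and Spred1 rose by 0.52 and 0.54, Rasa1, a GTPase activator that turns Ras off, by 0.51 and the ETS factor gene Etv5 by 0.57 (limma, adjusted p of at most 0.00747). In each of these 6 genes the inhibitor arrays also exceeded the mimic arrays (differences of 0.39 to 0.64; limma, adjusted p of at most 0.0109). For Dusp4 this p-value is no independent support either, and Dusp4 is counted among the 13 rises.

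Among the AP-1 factors, which pair Fos and Jun proteins on DNA, the members moved apart. Fosl1 (Fra-1) read 4.86, 5.04 and 4.87 in the controls and 5.56, 5.85 and 5.84 with the inhibitor, a rise of 0.83 ± 0.09 (SE; limma, adjusted p = 0.000337). Fos read 4.33, 4.35 and 4.43 against 3.92, 3.98 and 3.91, a fall of 0.43 ± 0.06 (SE; limma, adjusted p = 0.00083), so both genes separated the groups in opposite directions. Jun rose by 0.38 (limma, adjusted p = 0.00176), while Junb (-0.08), Jund (-0.06) and Fosb (-0.01) were not called. Fosl2 (0.26), Atf3 (0.36) and Mafg (0.22) passed the threshold (limma, adjusted p = 0.0204, 0.0158 and 0.0461). The calls of Fosl2 and Atf3 ended without control 1, control 3 or inhibitor 3, that of Fosl2 also without inhibitor 1, and that of Mafg without control 1, control 3, mimic 1, mimic 2, inhibitor 1 or inhibitor 2, where limma's adjusted p reached 0.0827, 0.0655 and 0.167. Of the 12 tested, 5 rose and 1 fell, with 2 rises without control 1 or control 3 and 3 without inhibitor 1 or inhibitor 3.

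Of 23 other early response genes 12 rose (52.2%) and 3 fell (13%). The nuclear receptor gene Nr4a1 read 5.88, 6.05 and 6.04 in the controls and 7.29, 7.28 and 7.16 with the inhibitor (log2 1.25 ± 0.09, SE; limma, adjusted p = 3.42e-05). Its mimic arrays, at 7.14, 7.22 and 6.90, overlapped the inhibitor arrays, and the difference between those groups was 0.16 (limma, adjusted p = 0.207). Klf4, a zinc finger factor of growth arrest and differentiation, rose from 5.41, 5.74 and 5.68 to 6.84, 6.69 and 6.86, and Klf10, a TGF-beta early gene, by 0.84 (limma, adjusted p = 4.81e-05 and 0.000308). Zfp36, whose product marks AU-rich messages for decay, fell from 5.79, 5.91 and 6.03 to 5.33, 5.29 and 5.34 (limma, adjusted p = 0.000489). Ier2 fell by 0.34 (limma, adjusted p = 0.00523). The mimic arrays of Zfp36 read 5.39, 5.30 and 5.21, level with the inhibitor arrays. The remaining fall, of Gem, a GTP-binding protein, by 0.22, held only without mimic 2 or mimic 3 among the fits that left out 1 array (limma, adjusted p = 0.05, and up to 0.159).

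Secreted growth factors outside the EGF family were called in both directions, 8 of 27 higher (29.6%) and 4 lower (14.8%). Pdgfc, a ligand of the platelet-derived growth factor receptor, read 6.92, 6.84 and 6.84 in the controls and 7.70, 7.67 and 7.78 with the inhibitor (log2 0.85 ± 0.11, SE; limma, adjusted p = 0.000795). Vegfa, the endothelial growth factor, read 5.77, 5.57 and 5.65 against 6.49, 6.39 and 6.39 (0.76 ± 0.08, SE; limma, adjusted p = 0.00024). Both genes separated the groups, and their highest mimic arrays, at 6.94 and 5.67, lay far below the inhibitor arrays. Kitl, the ligand of the receptor Kit, rose by 0.70, Pdgfa by 0.61 and the neurotrophic cytokine gene Clcf1 by 0.54 (limma, adjusted p of at most 0.00109). Ptn, which encodes the heparin-binding factor pleiotrophin, fell from 10.88, 10.89 and 10.92 to 10.61, 10.54 and 10.65 (log2 -0.29 ± 0.05, SE; limma, adjusted p = 0.00273). Fgf10, Vegfb and Gas6, a ligand of Axl, fell by 0.43, 0.28 and 0.32 (limma, adjusted p = 0.0217, 0.0174 and 0.0307). The calls of all 3 ended without control 1 or control 2, those of Fgf10 and Gas6 also without inhibitor 2 or inhibitor 3, that of Gas6 without control 3 and that of Vegfb without inhibitor 1 (limma, adjusted p of up to 0.088, 0.109 and 0.076 for Fgf10, Gas6 and Vegfb). The falls thus numbered 1 without control 1 or control 2 and 2 without inhibitor 2 or inhibitor 3.

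Receptors for these factors were called little more often than genes at large, 3 of 23 higher (13%) and 1 lower (4.35%). The coreceptor gene Nrp1 read 7.04, 7.03 and 7.17 in the controls and 7.75, 7.45 and 7.53 with the inhibitor (log2 0.49 ± 0.11, SE; limma, adjusted p = 0.0128), and Osmr, the oncostatin M receptor, rose by 0.39. The call of Nrp1 ended without control 1, control 2 or inhibitor 1 and that of Osmr without control 2 (limma, adjusted p of up to 0.0544 and 0.0563). Pdgfrl, a secreted protein similar to the platelet-derived growth factor receptor, fell from 7.62, 7.66 and 7.61 to 7.23, 7.16 and 7.29 (limma, adjusted p = 0.00123). The rises numbered 1 without control 1, 0 without control 2 (limma), 1 without inhibitor 1, 5 without mimic 2 and 7 without mimic 3. There were 2 falls without mimic 2 or mimic 3.

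In the TGF-beta, activin and BMP pathway the ligand gene Inhba rose most. Inhba (gene ID 16323), which encodes the activin A subunit, read 4.59, 4.53 and 4.47 in the controls and 5.64, 5.65 and 5.92 with the inhibitor, while the mimic arrays read 4.68, 4.57 and 4.44. Only the inhibitor arrays stood apart, by 1.21 ± 0.08 from the controls (SE; limma, adjusted p = 3.42e-05). Bmp1, a protease that also matures collagen, fell by 0.32, and its call ended without control 1, control 2, inhibitor 2 or inhibitor 3 (limma, adjusted p = 0.0192, and up to 0.0813). Of 12 inhibitors of the pathway 4 rose and none fell. Smad7, which blocks the receptors, went from 4.45, 4.44 and 4.50 to 5.15, 5.25 and 5.14 (limma, adjusted p = 3.42e-05), the Smad corepressor gene Skil rose by 0.51 and Grem1, a secreted BMP antagonist, by 0.38. The activin receptor gene Acvr2a rose by 0.48, a call that ended without control 1 or control 3 (limma, adjusted p = 0.0158, and up to 0.0681). Id1, a BMP target, rose by 0.47 (limma, adjusted p = 0.00553), with mimic arrays at 7.50, 7.50 and 7.82 above the inhibitor arrays at 7.39, 7.50 and 7.33 or level with them. Of all 36 members 7 rose (19.4%) and 1 fell (2.78%), with 11 rises and 4 falls without mimic 3.

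**Figure D2:**
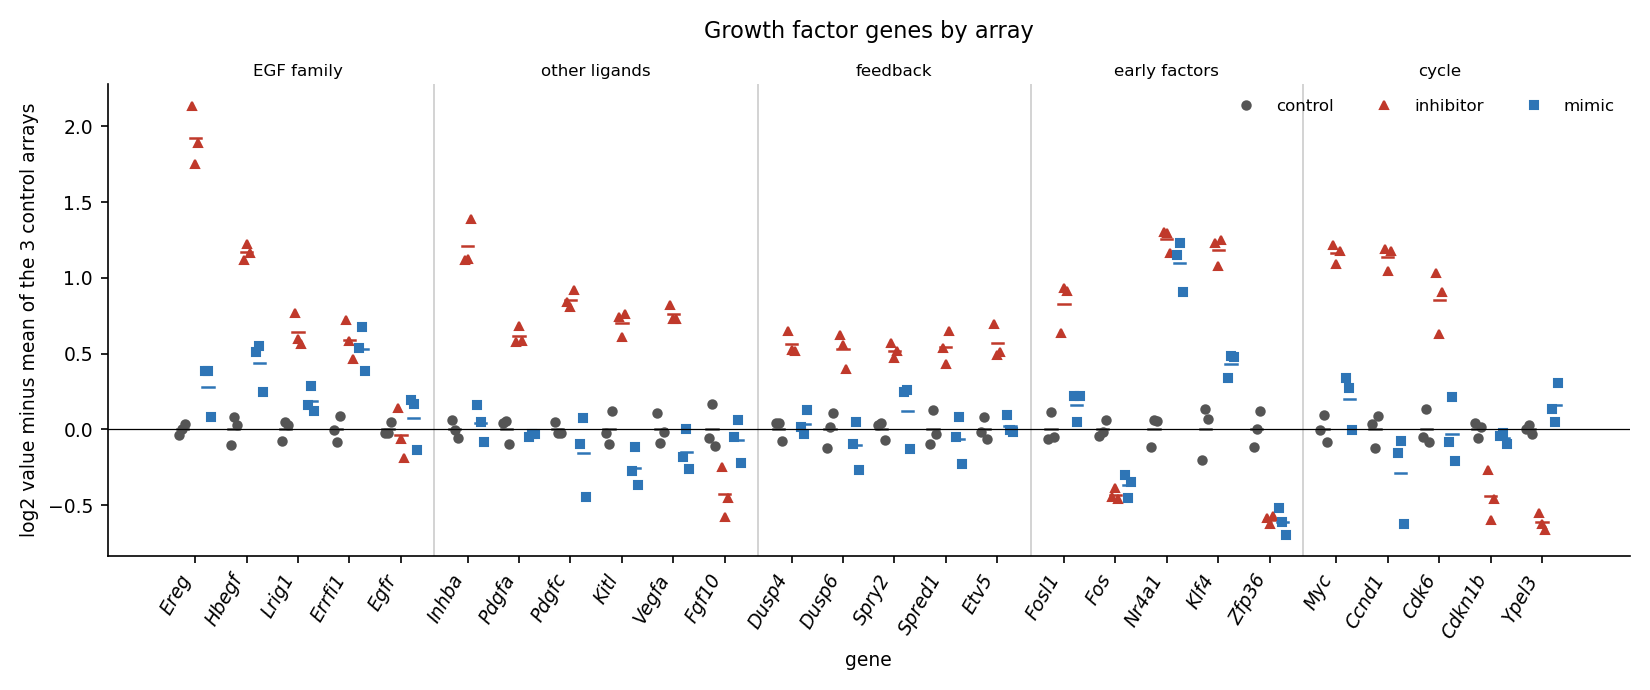
Points show each array's log2 value minus the mean of the 3 control arrays (y axis) for named growth genes (x axis), in grey for the control, red for the inhibitor and blue for the mimic, with short bars at group means. The red points of Ereg lie near 2, those of Hbegf, Inhba, Klf4, Myc and Ccnd1 near 1.2, and the red and blue points of Nr4a1, Fos and Zfp36 lie close together.

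Myc (gene ID 17869), the factor that drives ribosome and nucleotide production, read 6.68, 6.78 and 6.60 in the controls and 7.90, 7.78 and 7.87 with the inhibitor (log2 1.16 ± 0.09, SE; limma, adjusted p = 4.81e-05). Its mimic arrays, at 7.03, 6.96 and 6.69, lay well below the inhibitor arrays. Of the 13 members of its network Mxd4, a repressor that competes with Myc for the partner Max, fell from 7.57, 7.65 and 7.44 to 7.14, 7.25 and 7.12 (limma, adjusted p = 0.00574). Max (0.24), Mycn (0.01), Mycl (0.06), Mxd1 (-0.07), Mxd3 (-0.18), Mxi1 (-0.07), Mnt (0.04), Mlx (-0.03), Mlxip (0.05), Mga (0.13) and Fbxw7 (0.18) were not called. Without mimic 3 the network held 2 rises and 2 falls.

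Among G1 genes the cyclins and kinases held most of the rises, 9 of 10. Ccnd1 (gene ID 12443), which encodes cyclin D1, read 7.32, 7.16 and 7.37 in the controls, 8.47, 8.33 and 8.46 with the inhibitor and 7.12, 7.20 and 6.66 with the mimic. The inhibitor arrays lay above both other groups, with a log2 fold change of 1.14 ± 0.12 against the controls (SE; limma, adjusted p = 0.000369). Cdk6, its partner kinase, went from 6.27, 6.46 and 6.24 to 7.36, 6.95 and 7.23, and Ccne1 (cyclin E1), E2f4 and Ccnd2 (cyclin D2) rose by 0.65, 0.51 and 0.49 (limma, adjusted p of at most 0.00541). Skp2, the ubiquitin ligase subunit that removes the inhibitor p27, rose by 0.35 against the controls and exceeded the mimic arrays by 1.08 (limma, adjusted p = 0.0137 and 2.28e-05), and the first of these calls ended without control 1, inhibitor 1 or inhibitor 3 (adjusted p of up to 0.0638). Cdkn1b, which encodes p27, fell from 7.55, 7.45 and 7.52 to 7.24, 6.91 and 7.05 (log2 -0.44 ± 0.08, SE; limma, adjusted p = 0.00378). Of 18 cyclins, kinases and E2F factors 9 rose (50%) and none fell, and of 9 inhibitors 1 rose (11.1%) and 2 fell (22.2%). The rises of both together, 10 of 27, came to 6 without control 3 or inhibitor 1, and the falls to 1 without any 1 control or inhibitor array.

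Genes known to brake growth and survival of fibroblasts held more falls than rises, 8 (28.6%) against 4 (14.3%) of 28. Ypel3, linked to growth arrest, read 6.79, 6.81 and 6.75 in the controls and 6.23, 6.16 and 6.12 with the inhibitor, and Bmf, a cell death activator of the Bcl2 family, read 6.64, 6.67 and 6.55 against 5.89, 6.13 and 5.97 (limma, adjusted p = 0.000369 each). Neither gene's groups overlapped. Ccng2 (cyclin G2), Pik3ip1, an inhibitor of PI3 kinase, and the death activator Bcl2l11 (Bim) fell by 0.41, 0.38 and 0.34 (limma, adjusted p of at most 0.0135), the last with no call without control 1 (adjusted p = 0.0596). Klf9, a Krüppel-like factor with antiproliferative effects, went the other way, from 6.86, 6.99 and 6.78 to 7.89, 7.72 and 7.67 (limma, adjusted p = 0.000186), and the repressor gene Bcl6 rose by 0.44. The falls came to 4 without control 1, 5 without control 2 or inhibitor 1 and 13 after quantile normalization.

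Ribosome biogenesis held the largest share of rises. Of 47 factors tested, 36 rose (76.6%) and none fell (41 had an unadjusted p under 0.05), with 28 rises without control 1 or control 2 and 41 rises and 1 fall without mimic 3. Heatr1, a subunit of the particle that processes the small-subunit RNA, read 6.03, 5.88 and 6.03 in the controls and 7.10, 6.76 and 6.83 with the inhibitor (log2 0.92 ± 0.10, SE; limma, adjusted p = 0.000321). Utp20, of the same particle, rose by 0.82, the RNA helicase gene Ddx21 by 0.75, Polr1b, the second largest subunit of RNA polymerase I, by 0.70, Noc3l by 0.70 and Rrp12 by 0.69 (limma, adjusted p of at most 0.00757). The list median on each array, taken against the control mean, was 0.44, 0.39 and 0.36 on inhibitor 1, 2 and 3, and -0.03, 0.03 and -0.23 on mimic 1, 2 and 3. Inhibitor 1 was thus highest and mimic 3 lowest, as in the upper quartile of all probe sets, and the part of array intensity in this order was not tested. After quantile normalization, which gives the arrays 1 common distribution, 32 of the 47 rose and 1 fell, with a median of 0.30.

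Nucleotide synthesis enzymes rose in 18 of 28 cases (64.3%), and none fell. In the purine pathway 8 of 11 rose, led by Ppat, the enzyme of the first committed step, which read 6.19, 6.07 and 6.20 in the controls and 7.08, 6.80 and 6.99 with the inhibitor (log2 0.80 ± 0.12, SE; limma, adjusted p = 0.00204). Pfas and Gart, later enzymes of that pathway, rose by 0.64 and 0.52. The pyrimidine pathway had 4 rises among 9, with Ctps, which makes CTP, at 0.60. Tyms, the thymidylate synthase gene, named after its value was seen, differed by 0.00 and was not called. Among reductase subunits and one-carbon enzymes 6 of 8 rose, Mthfd1l, of mitochondrial folate metabolism, by 0.67 (limma, adjusted p = 0.00109). The list medians were 0.40, 0.29 and 0.38 on the inhibitor arrays and -0.12, -0.01 and -0.25 on the mimic arrays.

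Polyamine synthesis and amino acid uptake belong to the same growth supply. Azin1, which protects ornithine decarboxylase from degradation, rose from 7.92, 7.86 and 7.91 to 8.69, 8.54 and 8.73, and Odc1, the decarboxylase, from 7.58, 7.55 and 7.57 to 8.05, 7.91 and 7.89 (limma, adjusted p = 0.000723 and 0.00667). Srm, the spermidine synthase gene, rose by 0.27, and Oaz2, an antizyme, fell by 0.22 in a call that ended without any 1 control or inhibitor array (limma, adjusted p = 0.034, and up to 0.117). Smox (-0.01), Sat1 (-0.15), Mtap (0.09) and Dohh (0.27) were not called. Of 22 amino acid transporters 9 rose (40.9%) and none fell, with 1 fall without mimic 2 or mimic 3. Slc7a1 (gene ID 11987), the carrier of arginine and lysine, read 5.47, 5.50 and 5.35 in the controls and 6.80, 6.53 and 6.87 with the inhibitor, a fold change of 2.45 (limma, adjusted p = 3.42e-05). Slc38a1, a glutamine carrier, rose by 0.63, Slc7a5, the large neutral amino acid carrier, by 0.56 and its heavy chain Slc3a2 by 0.37 (limma, adjusted p of at most 0.00747).

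Among stress programs the p53 targets held the largest share of rises, 20 of 36 (55.6%), with 1 fall, and the rises numbered 18 to 22 over the fits that left out 1 array. Mdm2 (gene ID 17246), the ubiquitin ligase that removes p53, read 6.76, 6.66 and 6.71 in the controls, 7.73, 7.55 and 7.70 with the inhibitor and 6.76, 6.90 and 6.51 with the mimic. Ccng1 (cyclin G1) read 8.93, 8.90 and 9.01 against 9.91, 9.75 and 9.78 with the inhibitor. Both genes separated the inhibitor arrays from the other 6 arrays, with log2 fold changes against the controls of 0.95 ± 0.09 and 0.86 ± 0.07 (SE; limma, adjusted p = 0.000186 and 7.36e-05). By role, 8 of 13 cell cycle and repair targets rose, 5 of 6 feedback genes rose, 4 of 8 cell death genes rose and 3 of 9 others rose. Trp53inp1 rose by 0.79, Gadd45a, a growth arrest gene, by 0.72 and the death receptor gene Eda2r by 0.72 (limma, adjusted p of at most 0.00162), while the death activators Bbc3 (-0.04) and Pmaip1 (0.14), named after their values were seen, were not called. Sesn1 fell by 0.40, which passed the threshold in 3 of the 9 fits that left out 1 array (limma, adjusted p = 0.0341, and up to 0.116), namely those without mimic 2, mimic 3 or inhibitor 1. Trp53 and Cdkn1a were not analysed here.

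The amino acid response run by ATF4 was called in part. Atf4 itself read 7.46, 7.55 and 7.42 in the controls and 7.47, 7.42 and 7.49 with the inhibitor, overlapping values (-0.02; limma, adjusted p = 0.894), and Ddit3 (CHOP) differed by -0.07. Trib3, a pseudokinase induced by ATF4, rose from 5.31, 5.46 and 5.12 to 5.99, 5.90 and 5.97 (limma, adjusted p = 0.0011). Atf5 fell by 0.32 (limma, adjusted p = 0.0062). Slc7a11, the cystine carrier that ATF4 and NRF2 both switch on, read 3.99, 3.99 and 4.03 in the controls and 4.72, 4.48 and 4.46 with the inhibitor (log2 0.55 ± 0.07, SE; limma, adjusted p = 0.000741). Of 28 members 9 rose (32.1%) and 1 fell (3.57%), with 4 rises without control 2 and 5 without control 3, inhibitor 1 or inhibitor 3. The falls were 2 without mimic 3 or inhibitor 1. The 250 bases before the start site of Slc7a11 are shown because they hold a pair of C/EBP-ATF response elements in opposite orientation, in capitals. They run from chr3:50443614-50443863 on the minus strand (RefSeq, GRCm38.p6), within the outer bounds that RefSeq gives the gene. The letters TGATGNAAN, searched on both strands, stood in such a window of 5 of 26 ATF4 list genes (19.2%) and of 208 of 9560 tested genes (2.18%). The share was 0.714% of genes with a window that rose by 1.5-fold or more and 2.96% of those that fell. As the list is made of ATF4 and amino acid stress genes, its share describes the list, and a match describes the letters only.
Slc7a11: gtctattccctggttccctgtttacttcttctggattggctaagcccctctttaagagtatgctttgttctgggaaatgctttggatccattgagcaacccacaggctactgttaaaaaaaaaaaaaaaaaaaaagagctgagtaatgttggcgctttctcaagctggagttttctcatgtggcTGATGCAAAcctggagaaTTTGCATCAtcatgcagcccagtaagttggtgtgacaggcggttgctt

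Aminoacyl-tRNA synthetases, which charge transfer RNAs and are also ATF4 targets in many cells, rose in 8 of 18 cases (44.4%). Vars, for valine, read 7.37, 7.51 and 7.31 in the controls and 7.91, 7.80 and 7.81 with the inhibitor, and Iars, for isoleucine, rose by 0.44 as well (limma, adjusted p = 0.00258 and 0.00636). The inhibitor arrays lay above all controls in 16 of the 18 genes, where 24.9% of all genes tested had all 3 inhibitor arrays above the controls, and 37.7% had groups that did not overlap in either direction. This count of calls depended strongly on single arrays: it was 3 without control 1, control 3 or inhibitor 3, 2 without control 2 or inhibitor 1, 5 without mimic 1 and 14 without mimic 3. List medians were 0.30, 0.20 and 0.19 on the inhibitor arrays, with -0.31 on mimic 3.

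Chaperones of the endoplasmic reticulum were called less widely, 5 of 27 higher (18.5%) and none lower (12 had an unadjusted p under 0.05). Ero1a, the oxidase that drives disulfide formation, stood out, at 6.90, 6.79 and 6.87 in the controls, 8.03, 7.93 and 7.95 with the inhibitor and 6.75, 6.92 and 6.59 with the mimic (log2 1.12 ± 0.08 against the controls, SE; limma, adjusted p = 3.42e-05). Hspa5 (BiP), the chaperone that marks the unfolded protein response, rose by 0.43 and Canx (calnexin) by 0.31 (limma, adjusted p = 0.00335 and 0.0105), while Xbp1 (0.06), Dnajb9 (0.09) and Herpud1 (-0.10), which that response also induces, were not called. These 3 were named after their values were seen. The rises numbered 3 without control 2 and 9, beside 1 fall, without mimic 3. Of 19 cytosolic and mitochondrial heat shock genes 6 rose (31.6%). Hsph1 (Hsp105), a partner of the Hsp70 chaperones, rose from 7.67, 7.40 and 7.54 to 8.55, 8.39 and 8.58, Hsp90aa1 by 0.46 and the mitochondrial chaperonin gene Hspd1 by 0.44 (limma, adjusted p = 0.000605, 0.00131 and 0.00637). Cryab, a small heat shock protein, fell by 0.15 in a call that held in 2 of the 9 fits that left out 1 array, those without mimic 2 and mimic 3 (limma, adjusted p = 0.0385, and up to 0.126). Without mimic 3 the rises of this list numbered 11.

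Targets of the oxidative stress factor NRF2 were called in both directions. Hmox1 (gene ID 15368), heme oxygenase 1, read 7.77, 7.77 and 7.82 in the controls and 8.66, 8.60 and 8.63 with the inhibitor, with mimic arrays at 7.77, 7.74 and 7.84 among the controls (log2 0.84 ± 0.05, SE; limma, adjusted p = 9.63e-06). Gclc and Gclm, the subunits of the enzyme that limits glutathione synthesis, rose from 5.18, 5.19 and 5.23 to 6.05, 5.82 and 6.07 and from 7.05, 7.23 and 7.16 to 7.73, 7.50 and 7.64. The exporter gene Abcc1 rose by 0.90 and Txnrd1, thioredoxin reductase, by 0.66 (limma, adjusted p of at most 0.00365 for these 4). Of the glutathione transferases, Gstm1 fell from 7.90, 8.08 and 8.0 to 7.41, 7.45 and 7.45 and Gsta4 by 0.33 (limma, adjusted p = 0.000242 and 0.00973). Nfe2l2, which encodes NRF2, rose by 0.31, with no call without control 2 or inhibitor 1 (limma, adjusted p = 0.0156, and up to 0.0622). In all 8 of 25 rose (32%) and 2 fell (8%), with 5 rises without control 2 or inhibitor 1.

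Of 27 glycolysis and hypoxia genes 5 rose (18.5%) and 1 fell (3.7%). Hk2 (hexokinase 2) rose from 5.48, 5.42 and 5.42 to 6.49, 6.21 and 6.28, the glucose carrier Slc2a1 by 0.48 and Hif1a by 0.31 (limma, adjusted p of at most 0.00855). Eno2 fell by 0.41, and its mimic arrays, at 5.65, 5.83 and 5.59, lay level with the inhibitor arrays at 5.79, 5.63 and 5.66. Of 13 hypoxia genes 2 rose (15.4%), Hif1a and Vegfa, where 11.1% of all genes tested rose. The list held 2 falls without inhibitor 1.

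Chemokine and inflammation genes were called in both directions. Ptgs2, which encodes cyclooxygenase 2, read 7.84, 7.78 and 8.04 in the controls and 9.08, 9.0 and 8.85 with the inhibitor (log2 1.09 ± 0.12, SE; limma, adjusted p = 0.000337). Csf1, the macrophage growth factor, rose from 7.57, 7.65 and 7.72 to 8.40, 8.32 and 8.26, and 2 genes for chemokines that draw monocytes rose as well, Ccl2 by 0.60 and Ccl7 by 0.35 (limma, adjusted p of at most 0.00204). Ccl5 fell from 5.71, 5.45 and 5.28 to 4.69, 4.94 and 4.84, and Cxcl12, a homing chemokine made by fibroblasts, by 0.26 (limma, adjusted p = 0.00547 and 0.00571). Of 8 chemokines and cytokines tested 5 rose and 2 fell, of 4 prostaglandin genes 3 rose, and of 10 NF-kappaB and adhesion genes none passed limma's threshold, though 3 had an unadjusted p under 0.05. The rises of the list, 8 of 22 (36.4%), came to 5 without control 3 or inhibitor 1.

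Interferon-stimulated genes were the stress list without a rise. Of 56 members 32 were tested, 6 fell (18.8%) and none rose (limma, 13 with an unadjusted p under 0.05), with a median of -0.12 and 3 falls without control 3. Trim30a (gene ID 20128), a ubiquitin ligase family member, read 6.91, 6.91 and 6.94 in the controls, 6.38, 5.82 and 6.03 with the inhibitor and 6.93, 6.94 and 6.80 with the mimic. Ifi27 read 6.99, 6.97 and 6.99 in the controls, 6.44, 6.47 and 6.35 with the inhibitor and 7.54, 7.38 and 7.35 with the mimic. Both lay below every other array with the inhibitor (log2 -0.85 ± 0.11 and -0.57 ± 0.06, SE; limma, adjusted p = 0.0011 and 0.000321). Tapbp, which loads peptides on class I molecules, fell by 0.40 (limma, adjusted p = 0.000378). Stat2 and Irf9, transcription factors of the interferon response, fell by 0.35 and 0.29 (limma, adjusted p = 0.0146 and 0.0144). The call of Stat2 ended without control 1 or control 3 and that of Irf9 without control 3 or inhibitor 1 (adjusted p of up to 0.0635 and 0.0673). The window before the start of Stat2, chr10:128270248-128270497 on the plus strand (RefSeq, GRCm38.p6), ends where the annotated gene begins and is shown for its interferon-stimulated response element, in capitals. The element, searched on either strand as a pair of GAAA runs 2 bases apart, stood in the windows of 8 of 29 list genes (27.6%) and of 269 of 9560 tested genes (2.81%). The share was 1.43% of genes with a window that rose by 1.5-fold or more and 3.23% of those that fell. As the list is made of interferon-stimulated genes, its share describes the list and not the inhibitor arrays.
Stat2: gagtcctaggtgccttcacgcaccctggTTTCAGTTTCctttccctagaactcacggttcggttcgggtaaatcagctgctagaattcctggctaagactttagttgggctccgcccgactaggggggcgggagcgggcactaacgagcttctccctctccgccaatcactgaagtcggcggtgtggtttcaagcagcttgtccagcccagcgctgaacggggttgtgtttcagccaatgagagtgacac

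**Figure D3:**
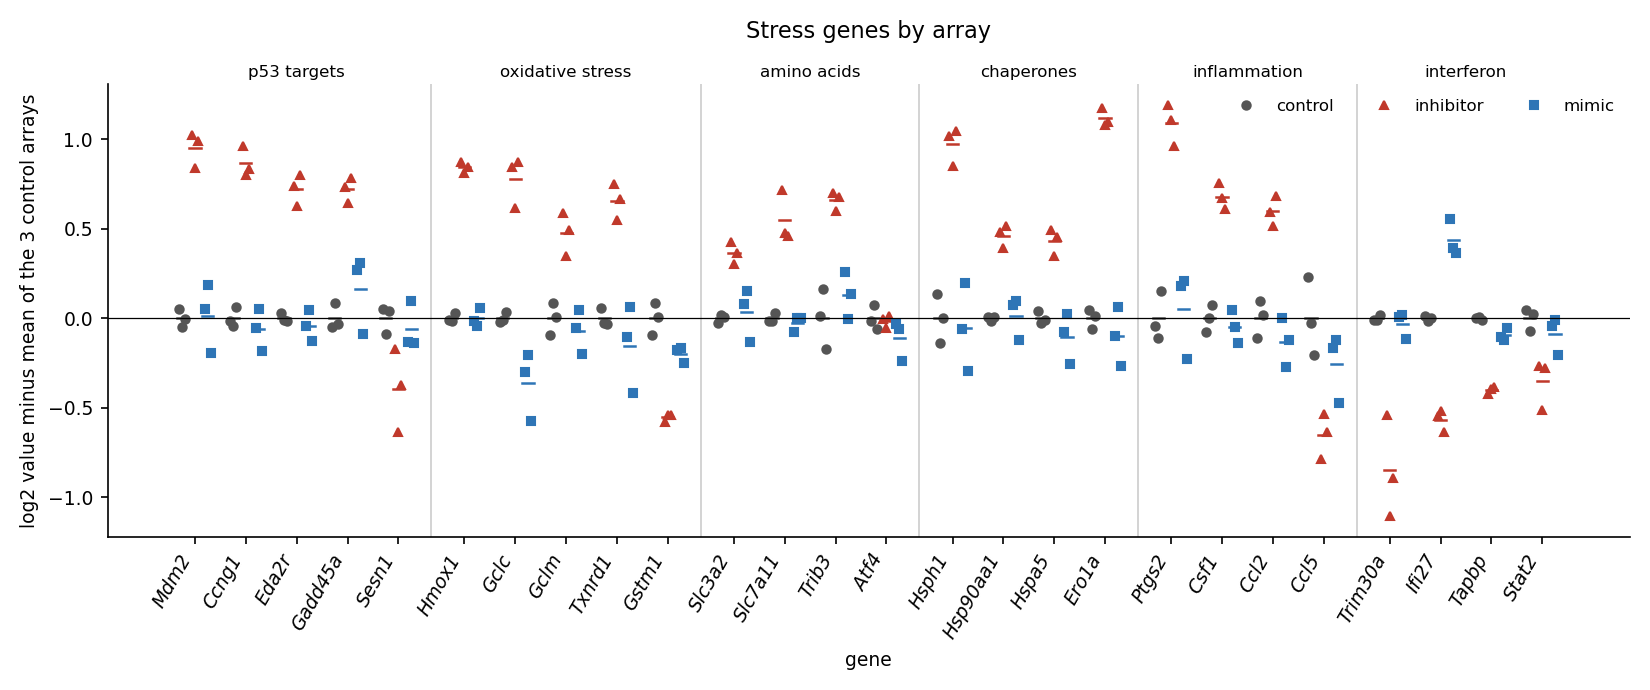
Points show each array's log2 value minus the mean of the 3 control arrays (y axis) for named stress genes (x axis), in grey for the control, red for the inhibitor and blue for the mimic, with short bars at group means. The red points lie above 0 for Mdm2, Hmox1, Slc3a2, Hsph1, Ero1a and Ptgs2 and below it for Gstm1, Ccl5, Trim30a, Ifi27, Tapbp and Stat2.

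In the matrix the main collagens of fibroblasts were not called. Col1a1 read 11.09, 11.04 and 11 in the controls and 11.04, 10.93 and 10.93 with the inhibitor, and Col1a2 read 11.37, 11.25 and 11.26 against 11.29, 11.19 and 11.16. The groups overlapped in both (-0.08 each; limma, adjusted p = 0.558 and 0.51). Col11a1, a minor fibrillar collagen, fell from 5.95, 5.89 and 5.94 to 5.67, 5.49 and 5.55 (limma, adjusted p = 0.00562). Col3a1 fell by 0.22, in a call that held only without mimic 2 or mimic 3 among the fits that left out 1 array (limma, adjusted p = 0.0427, and up to 0.149). Col12a1 and Col8a1 rose by 0.38 each, the first with no call without any 1 control array and the second with none without control 1, control 2 or inhibitor 1 (limma, adjusted p = 0.0159 and 0.0147, and up to 0.0608 and 0.067). Of 23 collagens 2 rose and 2 fell (8.7% each), with no rise without control 1 or control 2 by limma and 1 fall without any 1 control or inhibitor array. Fn1, fibronectin, differed by 0.09 and Mmp2, a gelatinase, by 0.02, neither called. Of 17 collagen-processing genes 2 rose and 2 fell (11.8% each), where 11.1% of all genes tested rose and 3.76% fell. Among the rises was Plod2, a lysyl hydroxylase, by 0.42. In this list limma called no gene without control 1 or control 2, and without mimic 3 there were 3 rises and 4 falls. The call of Plod2 also ended without inhibitor 1 (limma, adjusted p = 0.0183, and up to 0.0734).

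Proteoglycans divided by class. The small leucine-rich proteoglycans, which bind collagen fibrils, had 4 falls (44.4%) and no rise among 9 tested. Aspn (asporin, gene ID 66695) read 8.74, 8.78 and 8.96 in the controls, 8.26, 7.64 and 8.08 with the inhibitor and 9.52, 9.38 and 9.47 with the mimic. Lum (lumican, gene ID 17022) read 8.12, 8.06 and 8.24, then 7.57, 7.41 and 7.45, and then 8.56, 8.56 and 8.64 in the same order of groups. Both were lowest with the inhibitor and highest with the mimic, with no overlap between any pair of groups, and fell by 0.83 ± 0.13 and 0.66 ± 0.06 (SE; limma, adjusted p = 0.00236 and 0.000186). Ogn (osteoglycin) fell by 0.46 (limma, adjusted p = 0.00409), and Prelp by 0.29 with no call without control 2 or inhibitor 3 (limma, adjusted p = 0.0166, and up to 0.0734). Decorin and biglycan, Dcn (-0.14) and Bgn (0.02), named here after their values were seen, were not called. The large and cell-surface class had 4 rises (40%) and no fall among 10. Cd44, the hyaluronan receptor, rose from 5.64, 5.82 and 5.81 to 6.54, 6.32 and 6.41, the hyaluronan synthase gene Has2 by 0.52 and the syndecan gene Sdc4 by 0.47 (limma, adjusted p of at most 0.0106).

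The nidogens, which link laminin to collagen IV in basement membranes, moved apart. Nid1 (gene ID 18073) read 8.86, 8.87 and 8.86 in the controls, 9.61, 9.47 and 9.55 with the inhibitor and 8.25, 8.47 and 8.12 with the mimic. Nid2 (gene ID 18074) read 7.48, 7.53 and 7.30 in the controls and 6.86, 6.72 and 6.63 with the inhibitor. Nid1 thus rose by 0.68 ± 0.08 and Nid2 fell by 0.70 ± 0.08 (SE; limma, adjusted p = 0.000598 and 0.000521), each without overlap. Smoc2, a calcium-binding basement membrane protein, fell from 8.12, 8.10 and 7.98 to 7.54, 7.58 and 7.46 (limma, adjusted p = 0.000795). Of 20 basement membrane genes 2 rose (10%) and 3 fell (15%), where 11.1% of all genes tested rose and 3.76% fell. Without mimic 3 there were 4 rises. The other rise, Lamb1, held without mimic 2 or mimic 3 and ended without any 1 of the other arrays (limma, adjusted p = 0.0381, and up to 0.142).

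Matricellular proteins, which signal from the matrix rather than build it, were called in both directions, 4 of 13 higher (30.8%) and 2 lower (15.4%). Ccn2 (connective tissue growth factor, gene ID 14219) read 8.11, 8.25 and 8.10 in the controls, 9.22, 9.22 and 9.16 with the inhibitor and 8.94, 8.96 and 8.85 with the mimic. Thbs1 (thrombospondin 1) read 9.13, 9.20 and 9.14, then 10.15, 10.03 and 10.00, and then 9.85, 9.96 and 9.64. In both the controls were lowest, and the inhibitor arrays exceeded the mimic arrays by 0.28 and 0.24 (limma, adjusted p = 0.00421 and 0.0413) as well as the controls by 1.05 ± 0.06 and 0.90 ± 0.08 (SE; limma, adjusted p = 7.67e-06 and 0.000126). Tnc (tenascin C) rose from 5.12, 5.34 and 5.28 to 6.20, 5.80 and 5.91, with mimic arrays at 4.98, 5.12 and 4.96 (limma, adjusted p = 0.00121). Postn (periostin) fell from 10.34, 10.28 and 10.33 to 9.90, 9.61 and 9.71 and Sparcl1 by 0.34 (limma, adjusted p = 0.000784 and 0.00373). Ltbp2, a latent TGF-beta binding family member, rose by 0.70 and Mfap4, of elastic fibres, fell by 0.32 (limma, adjusted p = 0.000262 and 0.00367). Of 33 matrix glycoproteins 6 rose (18.2%) and 5 fell (15.2%), with 3 falls without control 2 or control 3 and 8 without mimic 3. No IGF-binding protein was called among 4 tested (limma, 0 with an unadjusted p under 0.05), with log2 differences of -0.13 to 0.04.

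Among matrix proteases, their inhibitors and their receptors 3 of 30 genes were higher (10%) and 2 lower (6.67%), where 11.1% of all genes tested rose and 3.76% fell. Plaur, the urokinase receptor, read 5.90, 5.79 and 5.88 in the controls, 6.73, 6.74 and 6.56 with the inhibitor and 6.18, 6.18 and 6.18 with the mimic (log2 0.82 ± 0.06 against the controls, SE; limma, adjusted p = 3.78e-05). Its ligand gene Plau, urokinase, rose by 0.57 (limma, adjusted p = 0.0063), with mimic arrays at 6.25, 6.49 and 6.04 that overlapped the inhibitor arrays at 6.5, 6.51 and 6.35. The aggrecanase genes Adamts1 and Adamts5 fell by 0.48 and 0.43, the second with no call without control 1, control 3 or inhibitor 3 (limma, adjusted p = 0.00248 and 0.0158, and up to 0.0643 for Adamts5). By role, 1 of 23 proteases rose (4.35%) and 2 fell (8.7%). The list held 5 rises without mimic 2 or mimic 3 and 1 fall without control 1, control 3 or inhibitor 3. The window before 1 annotated start site of Plaur, chr7:24462233-24462482 on the plus strand (RefSeq, GRCm38.p6), within the outer bounds of the gene, holds an AP-1 element, in capitals, and is shown because AP-1 genes were called too. The letters TGANTCA stood in the windows of 9 of the 140 genes with a window that rose by 1.5-fold or more (6.43%) and in 510 of 9560 tested genes (5.33%), shares that lie close together.
Plaur: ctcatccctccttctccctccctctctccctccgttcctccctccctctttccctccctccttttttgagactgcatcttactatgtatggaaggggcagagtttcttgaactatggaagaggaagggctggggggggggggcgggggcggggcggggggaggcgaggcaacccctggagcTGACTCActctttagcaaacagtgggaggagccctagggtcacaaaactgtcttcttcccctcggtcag

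Integrin genes, which encode receptors for the matrix, were called mostly higher. Itga6, a laminin receptor chain, read 4.76, 4.57 and 4.85 in the controls and 6.02, 5.47 and 5.59 with the inhibitor, with inhibitor 1 highest, and Itga5, the fibronectin receptor chain, read 6.32, 6.42 and 6.18 against 7.30, 7.10 and 7.08 (log2 0.97 ± 0.13 and 0.86 ± 0.10, SE; limma, adjusted p = 0.00112 and 0.000494). Itgav rose by 0.54 (limma, adjusted p = 0.00134). Of 13 integrin genes 5 rose (38.5%) and 1 fell (7.69%), with 3 rises without control 1, control 3, inhibitor 1 or inhibitor 3 and no fall without control 1, control 3 or any 1 inhibitor array (limma).

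Of 20 contractile genes 6 rose (30%). Of 12 YAP-TEAD targets, genes switched on by stretch and spreading, 7 rose (58.3%), and limma called no fall in either. The smooth muscle actin gene Acta2 read 9.82, 9.75 and 9.85 in the controls and 9.80, 9.72 and 9.73 with the inhibitor, with overlap (-0.06; limma, adjusted p = 0.621). Fhl2 and Vcl (vinculin), of focal adhesions, rose by 0.55 and 0.51 and Actn1, an actin crosslinker, by 0.49 (limma, adjusted p of at most 0.00489). With the mimic, Fhl2 stood at 7.29, 7.28 and 7.36 above the inhibitor arrays at 7.02, 7.08 and 7.03. Crim1 rose from 6.80, 6.77 and 6.72 to 7.61, 7.44 and 7.50, and Ankrd1, a cardiac ankyrin repeat protein also made in fibroblasts, from 5.27, 5.17 and 5.17 to 6.06, 5.58 and 5.83 (limma, adjusted p = 0.00087 and 0.00626). The 13 rises among 32 (40.6%) came to 7 without control 1 or inhibitor 3 and 6 without control 3 or inhibitor 1, and 2 genes fell without mimic 3. The window before the start of Ankrd1, chr19:36119845-36120094 on the minus strand (RefSeq, GRCm38.p6), ends just before the annotated gene and is shown for its pair of TEAD elements, in capitals. The letters GGAATG, on either strand, stood in the windows of 14 of 28 list genes (50%) and of 1209 of 9560 tested genes (12.6%). The share was 17.1% of genes with a window that rose by 1.5-fold or more and 12.4% of those that fell. YAP-TEAD targets make up part of the list, so its share describes the list and not the inhibitor arrays.
Ankrd1: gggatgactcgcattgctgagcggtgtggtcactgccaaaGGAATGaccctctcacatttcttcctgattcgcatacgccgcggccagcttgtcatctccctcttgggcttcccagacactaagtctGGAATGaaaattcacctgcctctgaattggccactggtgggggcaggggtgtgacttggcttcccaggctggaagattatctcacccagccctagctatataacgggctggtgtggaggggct

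**Figure D4:**
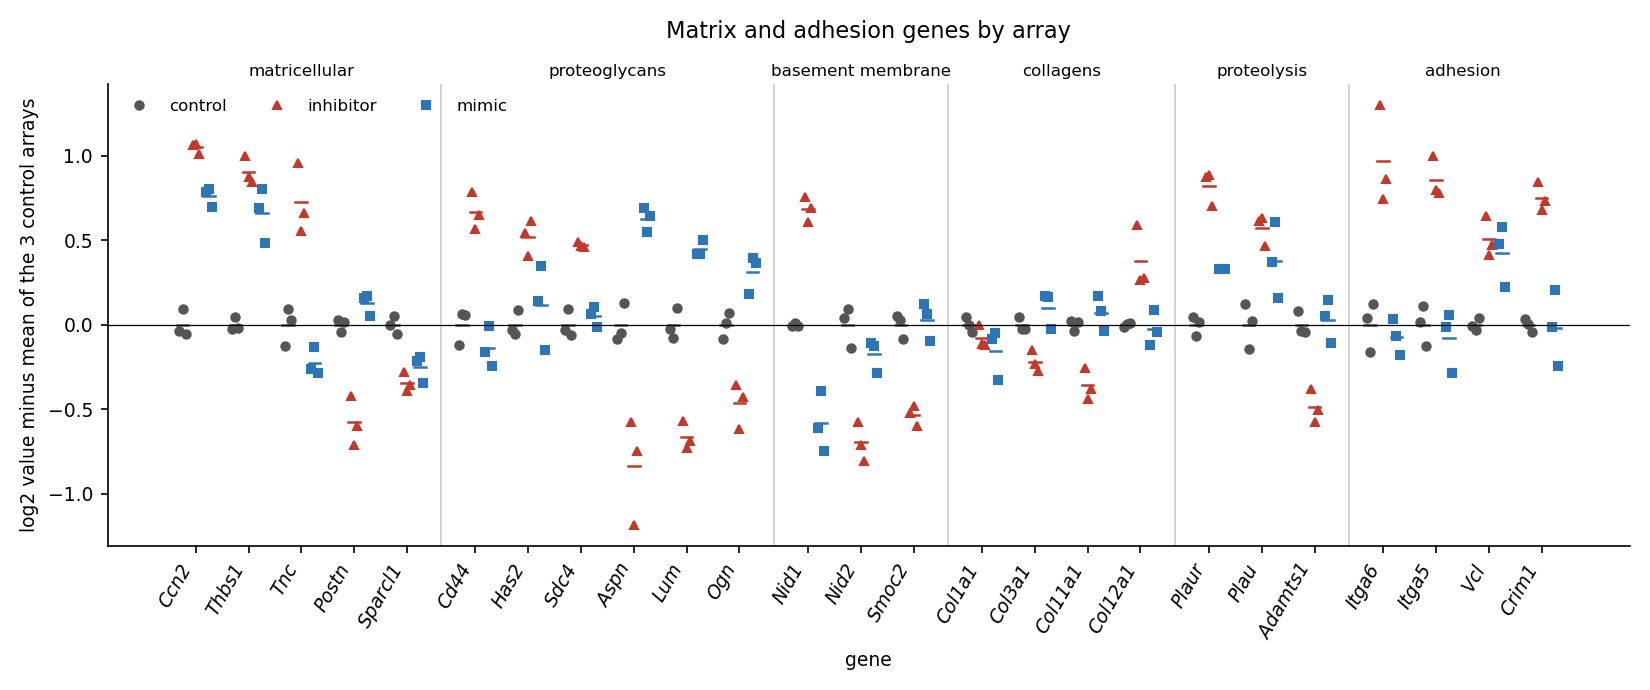
Points show each array's log2 value minus the mean of the 3 control arrays (y axis) for named matrix and adhesion genes (x axis), in grey for the control, red for the inhibitor and blue for the mimic, with short bars at group means. The red points of Ccn2, Thbs1, Nid1, Plaur, Itga6 and Itga5 lie above 0, those of Postn, Aspn, Lum, Nid2 and Smoc2 below it, and those of Col1a1 on or just below it.

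Of 13 secreted Wnt regulators 7.69% rose and 7.69% fell, and of 15 ephrins and semaphorins 6.67% rose and 13.3% fell. Of all genes tested 11.1% rose and 3.76% fell. Sfrp2, which binds Wnt proteins, read 8.56, 8.64 and 8.62 in the controls and 8.08, 7.74 and 7.82 with the inhibitor, and Wnt5a read 5.22, 5.02 and 5.19 against 5.75, 5.61 and 5.65 (log2 -0.73 ± 0.08 and 0.53 ± 0.07, SE; limma, adjusted p = 0.00044 and 0.000806). They were the 2 calls among 13. Efnb2, an ephrin ligand of endothelial and stromal cells, read 5.29, 5.34 and 5.28 in the controls and 6.45, 6.33 and 6.36 with the inhibitor (log2 1.07 ± 0.05, SE; limma, adjusted p = 7.67e-06), the 1 rise among 15 ephrins and semaphorins. In that list 2 genes fell, and none without control 1 (limma).

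Several of the largest changes lay outside the lists. Flvcr1, a heme exporter, rose from 5.90, 5.74 and 5.79 to 7.07, 6.81 and 7.03, Tfrc, the transferrin receptor, by 0.99 and the gap junction gene Gja1 (connexin 43) by 0.99 (limma, adjusted p of at most 0.00111). Gja1 had its mimic arrays at 5.67, 5.95 and 5.58, below the controls at 6.16, 6.28 and 6.28. Cd109, a coreceptor of TGF-beta, and the protease inhibitor gene Serpina3n rose by 0.94 and 0.90. Among falls, Lrrc17 (gene ID 74511), a secreted leucine-rich repeat protein, read 8.23, 8.12 and 8.12 in the controls and 7.13, 7.18 and 7.05 with the inhibitor, a fold change of 0.487 (limma, adjusted p = 7.67e-06). The probe set of Mir145a read 5.07, 5.06 and 5.20 in the controls, 4.10, 4.03 and 3.99 with the inhibitor and 4.01, 4.17 and 4.03 with the mimic, so that both RNA treatments lay below the controls and overlapped each other. Prokr1, a prokineticin receptor, Apod (apolipoprotein D) and the hedgehog coreceptor gene Boc fell by 0.78, 0.62 and 0.60 (limma, adjusted p of at most 0.00262).

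The inhibitor arrays were also set against the mimic arrays, where 2377 genes were higher (19.9%) and 827 lower (6.91%) by the same limma rule. Of the growth genes 158 of 332 were higher than with the mimic and 17 lower, of the stress genes 102 of 233 and 25, and of the matrix genes 43 of 219 and 40. Among genes that rose against the control, the inhibitor arrays differed from the mimic arrays by 0.16 for Nr4a1, 0.06 for Errfi1, 0.08 for Vcl, 0.19 for Plau and -0.20 for Id1, none called (limma, adjusted p of 0.121 to 0.661). Among genes that fell, the differences were -0.02 for Mir145a, -0.07 for Fos, 0.01 for Zfp36, 0.11 for Ier2, -0.01 for Ccng2, 0.00 for Eno2 and -0.01 for Cxcl12, none called (limma, adjusted p of 0.205 to 0.991). These 12 genes were picked after their values were seen, and a difference that was not called does not show that both treatments gave the same level. Aspn, Lum, Ifi27, Nid1, Gja1 and Ccnd1 had differences of -1.46, -1.11, -1.01, 1.26, 1.5 and 1.43 from the mimic (limma, adjusted p of at most 6.47e-05). These genes, too, were picked by their values, so their p-values are no independent support.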

How the data were processed

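RNA of NIH-3T3 cells was labelled with biotin and hybridised to whole-transcript arrays, per the labels' protocols. The authors deposited log2 values per probe set, made with RMA, and Partek 6.5 is also named, per the submitters' processing notes. RMA subtracts background and equalizes probe distributions before summarizing, and fold changes of dim probe sets are compressed. The deposited values still differed in distribution between arrays, with upper quartiles from 5.55 on mimic 3 to 5.76 on inhibitor 1. Of 28853 probe sets 21789 named 1 gene, giving 19938 genes, of which 999 had several probe sets. Genes with a mean under the 40th percentile were left out. limma 3.58.1 (R 4.3.3) fitted 1 mean for each of the groups over all 9 arrays (6 residual and 4.37 prior degrees of freedom, median residual SD 0.08). The number of arrays limits the precision. The script was tested on simulated data with known changes. Named genes are the 15 largest non-overlapping rises and falls, up to 6 called members a list in each direction, all tested members of 5 lists, 16 fixed genes and the 10 largest differences from the mimic. Members, lists and the rule were chosen with earlier results of these data known. Gene names come from the platform annotation, sequences from RefSeq (GRCm38.p6), with motifs searched in the 250 bases before annotated starts. The array probes' genome build was not given in the sources used here. The labels do not say whether replicate numbers pair the samples. Deviations of same-numbered control and inhibitor arrays correlated at 0.135, 0.224 and -0.058, and those of the other control and inhibitor pairs at -0.265 to 0.147. Mimic and inhibitor pairs ran wider, from -0.589 (mimic 2 with inhibitor 2) to 0.634 (mimic 2 with inhibitor 1), and the source of these shared deviations was not tested. These values cannot show whether same-numbered arrays shared a batch. No array pair shared more than 3.58% of its values. Figures used matplotlib 3.10.9 in Python 3.11.15.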

Additional observations from a re-analysis of the deposited data

Results flagged for a closer look

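Probe sets that name no single gene stood outside the comparison, and some of them also differed between inhibitor and control arrays. Of 824 probe sets assigned to several genes and above the level filter, 51 were higher with the inhibitor and 75 lower in the same limma fit run over all probe sets (6.19% and 9.1%). Of 2079 probe sets with no gene name, 69 were higher and 34 lower (3.32% and 1.64%). Among probe sets with 1 gene the shares in that fit were 9.65% and 3.57%. Which transcripts the several-gene and unnamed probe sets read was not analysed here.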

How the results depend on the processing

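None of the 213 named calls changed sign under any alternative run (level filter, quantile normalization, median centring, the 6 arrays alone, replicate block, moderation with trend, mean of all probe sets, a 1.5-fold minimum, each array left out, and inhibitor 1 with mimic 3 left out). Falls against the control numbered 1022 after quantile normalization, 270 after median centring, where rises were 80.3% of calls, and 831 without inhibitor 1 and mimic 3, and falls against the mimic 1670 after quantile normalization and 545 after centring. With a 1.5-fold minimum 175 genes rose and 16 fell against the control, and 372 were higher and 38 lower than with the mimic. With 1 array left out, rises against the control ran from 742 to 2067 and falls from 232 to 723, and counts against the mimic from 1637 to 2874 higher and from 543 to 1005 lower. With the replicate block 1575 genes were called, 1193 higher and 382 lower, but whether the numbers pair the samples is not known. Of 213 named calls 153 held in all 9 fits with 1 array left out, and 60 did not. Calls lost were 7 under quantile normalization, 24 under centring, 16 with the block, 7 with trend, 21 with no level filter, 3 at the 50th percentile and 3 without inhibitor 1 and mimic 3. Genes that a run no longer tested, such as Fos at the 50th percentile, were not counted as lost. Values near 0 did change sign: among genes not called, Egfr reached 0.04 and Atf4 0.02 with 1 array left out, and after centring the medians of collagen-processing genes and matrix glycoproteins were 0.01 each. The median of all genes was -0.01 with no level filter. The causes were not tested. Dim probe sets near the level of 3.86 have compressed differences.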
